A study of Mus musculus with 24 samples.

Results

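The genes described here encode the proteins of the mitochondrial ribosome. They were chosen by name alone: every gene whose platform symbol starts with Mrpl or Mrps followed by a digit, each represented by its brightest probe set. The rule gave 76 genes, 47 Mrpl and 29 Mrps, of the 13880 genes tested on the array, and all 76 lay above the low-signal filter. The array carries 156 probe sets that name 1 such gene and 4 more that it shares with another gene. Mrpl30 and Mrpl53 are found on shared probe sets alone and are not counted as members. Mrpl57 and Mrpl58 are older known as Mrp63 and Ict1.

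Affymetrix mouse arrays were used to measure RNA of whole adrenal glands from wild-type (wt) male C57B/6J mice aged 3 months. All mice had been entrained for 2 weeks to 12 h of light and 12 h of darkness and were killed in constant darkness, at intervals of 4 h between 38 and 82 h after lights off. The 12 time points had 2 arrays each, 24 in all, and correspond to 6 projected circadian times (the hours minus 12, modulo 24): 2, 6, 10, 14, 18 and 22, over 2 cycles. No group had a treatment or mutation, so the comparisons are between times only.

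The mitochondrial ribosome translates the few messenger RNAs of the mitochondrial genome, all of which encode subunits of the respiratory chain and the ATP synthase. Its proteins are encoded in the nucleus, made in the cytosol and imported, and they join mitochondrial ribosomal RNAs in a large subunit (Mrpl genes, with Mrps30 and Mrps18a as exceptions by name) and a small subunit (Mrps genes). Many have a counterpart in the bacterial ribosome, and the others were added during evolution of the organelle. Mrps36 carries the name but is now known as a component of the oxoglutarate dehydrogenase complex. In the adrenal cortex, mitochondria also hold the first and last enzymes of steroid synthesis.

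Several features of the arrays bear on every value below. In 6 pairs of arrays the deposited values of every probe set brighter than 50 agreed to within 5.26%, closer than between any other arrays of one circadian time, and each pair was averaged and counted as 1 profile. This left 18 profiles, 3 per circadian time. The ThrX-3 spiked control separated 12 profiles with a signal under 300 (the first array set, circadian times 2, 6, 14 and 22) from 6 profiles above it (the second array set, circadian times 10 and 18). Array set and circadian time are therefore confounded: a level particular to circadian times 10 and 18 together cannot be told apart from a difference between the array sets. Whether both arrays of a time point stem from different animals is not stated in the labels, so the p-values reflect the spread between samples that may be technical replicates. All 7 adrenal cortex markers and all 7 medulla markers lay above the filter. The summed cortex signal was 63171 to 67180 at circadian time 10, 58697 to 68663 at 18 and 68198 to 71300 in the first array set. It was thus lower at 10 than in the first array set without overlap, and its part in the family's levels was not tested. Of the single cortex markers, Cyp11a1 (log2 level 13.33 to 13.43 against at least 13.58) and Cyp21a1 (13.20 to 13.36 against at least 13.48) were lower at 10. Star, Cyp11b1, Hsd3b1, Nr5a1 and Mc2r overlapped their first-set levels. The medulla sums overlapped, with 35930 to 38868 at 10, 35174 to 43244 at 18 and 35524 to 44712 in the first array set. Of the single medulla markers, Th was lower at 10 (11.82 to 12.06 against at least 12.18). Slc18a1 was higher (10.50 to 10.63 against at most 10.48), and the other medulla markers overlapped their first-set levels. Skeletal muscle and liver genes and RNA quality differed within the second array set. The summed blood and kidney markers differed between circadian time 10 and the first array set. The values of all these stand beside the results they move with. The clock genes Arntl, Dbp and Per2 had fitted peaks at circadian times 21.8, 9.51 and 13.7, with amplitudes of 1.95, 2.17 and 1.26 on the log2 scale.

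The family was even across the first array set and lower at circadian time 10. Levels are log2(signal + 51.0), and each profile is given as the median over the 76 genes of the difference from that gene's mean in the first array set. In the 12 profiles of the first array set this median lay between -0.04 and 0.09. The 3 profiles of circadian time 10 had medians of -0.31, -0.34 and -0.33, and those of circadian time 18 had -0.07, -0.16 and 0.05. Circadian time 10 was thus below all other times in every profile. Circadian time 18 had 2 medians below those of the first array set and 1 among them, that of 78 h replicate 2, the profile with a low 5' to 3' Gapdh signal. In the 3 profiles of circadian time 10, 59, 56 and 61 of the 76 genes lay below all 12 profiles of the first array set, and in those of circadian time 18 25, 44 and 24 did. This count was not made over all genes, so it does not tell how far it is particular to the family. Of all genes, 29.6% were called lower in the second array set than in the first. The same median over all 13880 genes was between -0.06 and -0.02 at circadian time 10.

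**Figure D1:**
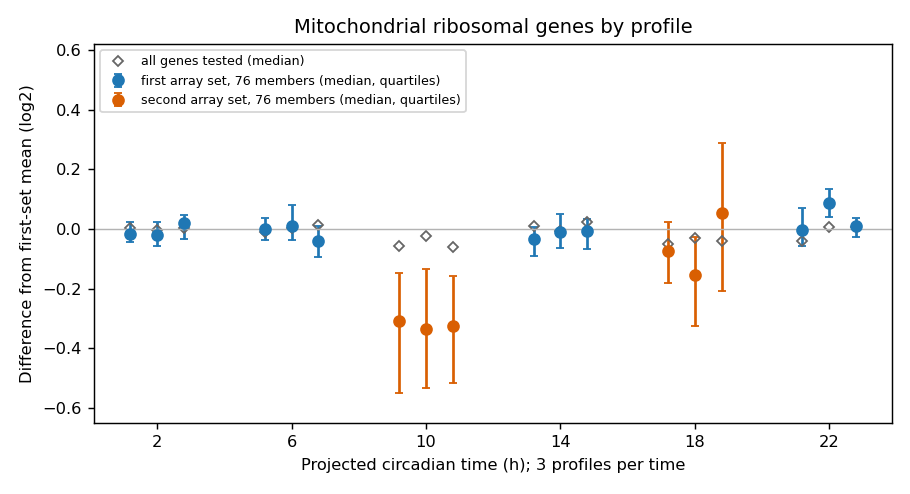
Median difference from the first-set mean (log2, y axis) of the 76 mitochondrial ribosomal genes in each of the 18 profiles, by projected circadian time (h, x axis), with bars for the lower and upper quartile over genes and open diamonds for the median of all 13880 genes tested. The 3 profiles at circadian time 10 lie at -0.31 to -0.34, below every other profile, and the quartile range is wider in the second array set (orange) than in the first (blue).

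Comparison lists differed in the size of that gap. The mean at circadian time 10 minus the mean of the first array set had a median of -0.32 over the 76 mitochondrial ribosomal genes, -0.21 over 77 respiratory chain subunits and -0.10 over 41 cytosolic ribosomal proteins, against -0.05 over all genes tested. The lists also differed in median level, in the same order 10.87, 12.46 and 13.17, against 9.51 over all genes. The part of signal level in these gaps was not tested. In 40 of the 76 genes (52.6%) the 3 profiles of circadian time 10 were below all other 15, which held for 8.71% of all genes. It also held for 30 of 77 respiratory chain subunits (39.0%) and 15 of 41 cytosolic ribosomal proteins (36.6%). By symbol, it held for 25 of 47 Mrpl and 15 of 29 Mrps genes. Of the 5 blood markers 2 were measured, and their summed signal was 848 to 1308 at circadian time 10, 593 to 1468 at 18 and 400 to 625 in the first array set. The 5 kidney markers summed to 1574 to 1661 at 10, 1051 to 1707 at 18 and 2014 to 2365 in the first array set, with Umod, Aqp2 and Slc12a1 under the filter. Both sums thus separated circadian time 10 from the first array set without overlap, but the single markers did not move alike. Hba-a1 was at 9.43 to 10.16 at circadian time 10 against 7.87 to 8.32, while Alas2, at 7.98 to 8.06, stayed within its first-set range. Slc34a1 was at 8.27 to 8.37 against 9.22 to 9.66, and Aqp2 was also lower. Kap, Umod and Slc12a1 overlapped their first-set ranges. The part of blood and kidney RNA in the family's levels was not tested. The bulk tissue does not separate fewer cells of a type from less RNA per cell.

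The 24 h rhythm was tested with a cosine and sine beside a term for the array set. The test called 23 of 76 genes (30.3%, limma, adjusted p under 0.05), where it called 17.9% of all genes. Of the 23, 22 had fitted peaks between circadian times 16.8 and 22.4, in the projected night when mice are active; 6.67% of all genes were called with a peak between 16 and 24. The exception was Mrps9, with a peak at 6.67. Amplitudes, from the fitted mean to the peak, ran from 0.13 to 0.34 on the log2 scale over the 23 genes. Whether called or not, 58 of 76 genes (76.3%) had a fitted peak between 16 and 24, against 34.9% of all genes. The share was 70.1% over 77 respiratory chain subunits and 70.7% over 41 cytosolic ribosomal proteins. With the array set term, circadian times 10 and 18 enter the fit only through their difference. A rise from 10 to 18 alone draws the fitted peak into the projected night. Mrps16, whose first-set means spanned 0.05, had a fitted peak at 20.1. The peak times are thus not independent of the 18 minus 10 difference. The median amplitude, 0.10, was close to that of all genes, 0.09. By symbol the test called 13 of 47 Mrpl and 10 of 29 Mrps genes.

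**Figure D2:**
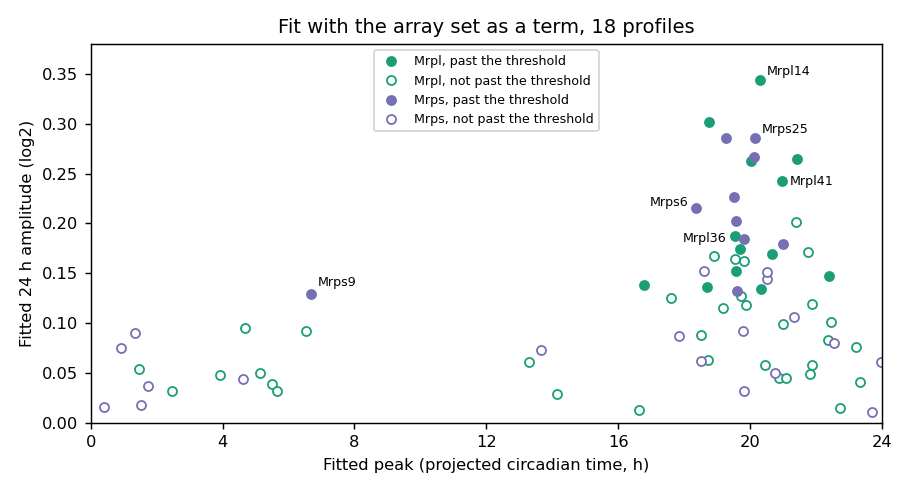
Fitted 24 h amplitude (log2, y axis) against fitted peak (projected circadian time, h, x axis) for the 76 genes in the fit with the array set as a term; filled points passed the threshold, in green for Mrpl and violet for Mrps. Filled points gather between 16.8 and 22.4 with Mrpl14 highest at 0.34, and Mrps9 alone is filled on the left, at 6.67.

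Much of that count went with circadian time 10. Of the 23 called genes, 19 had all 3 profiles of circadian time 10 below the other 15; Mrpl15, Mrpl38, Mrps6 and Mrps9 did not. Within the first array set alone the cosine called 7 of 76 genes (Mrpl15, Mrpl17, Mrpl20, Mrpl36, Mrpl41, Mrps25 and Mrps6), or 9.21%, under the 12.3% of all genes, and the median amplitude was 0.06 against 0.08. Without the array set term it called 10 genes, against 12.8% of all genes. Mrpl41, Mrps25 and Mrps6 were called in all 3 of these fits. The count with the array set term fell to 14 without either the profile of 46 h replicate 1 or the joined profile of 70 h, to 15 without 46 h replicate 2, and to 8 without the 4 profiles with an Acta1 signal over 1000.

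Mrps25, a small-subunit protein with no bacterial counterpart, was called in all 3 fits. Its levels were 10.10, 9.98 and 10.08 at circadian time 2, 9.85, 9.87 and 9.998 at 6, 9.40, 9.23 and 9.52 at 10, 10.003, 10.01 and 10.07 at 14, 10.20, 10.09 and 10.04 at 18, and 10.17, 10.19 and 10.14 at 22. Circadian time 10 lay below every other profile, and circadian time 6 had the lowest mean of the first array set, 9.91 ± 0.08 (SD, n = 3). The amplitude was 0.29 ± 0.04 (SE, 18 profiles) with a peak at 20.1 (limma, adjusted p = 0.000807). In the first array set alone it was 0.15 ± 0.03 with a peak at 20.3 (12 profiles, limma, adjusted p = 0.0242). A second, dimmer probe set of Mrps25 was also called in the 24 h fit, with an amplitude of 0.15 and a peak at 19.3. At circadian time 10, however, it lay at -0.02 relative to the first array set, where the chosen one lay at -0.66. Its 18 minus 10 difference was 0.27, against 0.73 for the chosen one.

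Mrpl41, a large-subunit protein also without bacterial counterpart, had a similar course. Its levels were 11.46, 11.50 and 11.41 at circadian time 2, 11.37, 11.41 and 11.33 at 6, 10.71, 10.77 and 10.78 at 10, 11.44, 11.27 and 11.36 at 14, 11.32, 11.30 and 11.43 at 18, and 11.65, 11.54 and 11.56 at 22. All 3 profiles of circadian time 22 were above the other 15, and all 3 of circadian time 10 were below them. The amplitude was 0.24 ± 0.04 with a peak at 21.0 (18 profiles, limma, adjusted p = 0.000587), and 0.14 ± 0.03 in the first array set (12 profiles, limma, adjusted p = 0.0264). A second bright probe set of Mrpl41 gave an amplitude of 0.25 and a peak at the same time to within 0.0352 h.

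Mrps6, the counterpart of bacterial S6 on the platform of the small subunit, was high at circadian time 18 and not low at 10. Its levels were 11.38, 11.39 and 11.35 at circadian time 2, 11.36, 11.40 and 11.38 at 6, 11.31, 11.51 and 11.36 at 10, 11.57, 11.55 and 11.59 at 14, 11.79, 11.90 and 11.98 at 18, and 11.63, 11.56 and 11.49 at 22. Circadian time 18 was above every other profile, and within the first array set circadian times 14 and 22 were above 2 and 6 without overlap. The amplitude was 0.22 ± 0.03 with a peak at 18.4 (18 profiles, limma, adjusted p = 0.000946). The test of any difference among the 4 circadian times of the first array set also called it (12 profiles, limma, adjusted p = 0.0137). A second bright probe set, however, lay at -0.85 relative to the first array set at circadian time 10, where the chosen one lay at -0.08. In the annotation the interval of Slc5a3 overlaps the first part of Mrps6, and its start lies beside that of Mrps6.

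Mrpl36, the counterpart of the small bacterial protein L36, had the lowest p of the family. Its levels were 10.91, 10.94 and 10.95 at circadian time 2, 10.80, 10.84 and 10.84 at 6, 10.0005, 10.10 and 10.15 at 10, 10.91, 10.99 and 11.03 at 14, 10.45, 10.49 and 10.54 at 18, and 11.08, 11.08 and 11.02 at 22. Both times of the second array set lay below all 12 profiles of the first, and circadian time 10 lay below 18. The amplitude was 0.19 ± 0.03 with a peak at 19.5 (18 profiles, limma, adjusted p = 0.000342), beside a term of -0.68 ± 0.04 for the second minus the first array set. Without that term the gene was not called (limma, adjusted p = 0.127), and in the first array set alone the amplitude was 0.14 ± 0.03 (12 profiles, limma, adjusted p = 0.0127).

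The 4-time test within the first array set called 5 genes: Mrps6, Mrps34, Mrpl36, Mrpl41 and Mrpl20. This is 6.58% of the family, where 10.5% of all genes were called, and leaving out single profiles gave between 1 and 6. It was 1 without replicate 1 of 38, 42, 62 or 74 h or replicate 2 of 50 h, 2 without 58 h replicate 1, and 3 without the joined profile of circadian time 2, 6 or 14. Mrps34, a small-subunit protein without bacterial counterpart, was the one of the 5 that the 24 h fit with the array set term did not call (limma, adjusted p = 0.23). Its mean ± SD (n = 3) was 11.92 ± 0.04 at circadian time 6, 11.91 ± 0.03 at 22, 11.84 ± 0.03 at 2 and 11.74 ± 0.02 at 14. Mrpl20, the counterpart of a bacterial protein of early large-subunit assembly, was highest at 14 (11.09 ± 0.03) and lowest at 2 (10.88 ± 0.02).

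**Figure D3:**
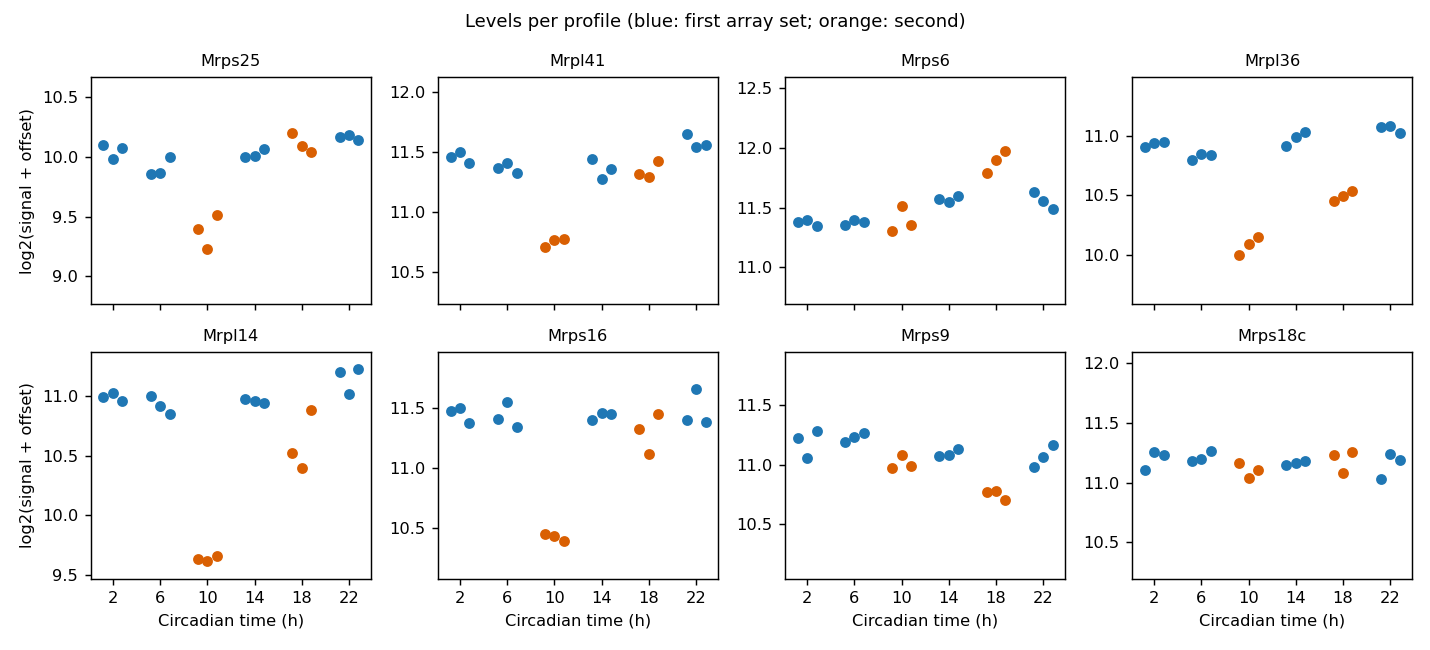
Level of 8 genes, log2(signal + offset) on the y axis, in each of the 18 profiles by projected circadian time (h, x axis), blue for the first and orange for the second array set; each panel spans the same log2 range. Mrps25, Mrpl41, Mrpl14 and Mrps16 are low at circadian time 10, Mrps6 is high at 18, Mrps9 is lowest at 18, and Mrps18c stays between 11.03 and 11.26.

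Circadian times 18 and 10 were compared within the second array set, where the array set is constant. Of the 76 genes, 17 rose from circadian time 10 to 18 (22.4%) and 0 fell (limma, adjusted p under 0.05). Over all genes, 3.57% were called higher and 2.44% lower. The median difference, 18 minus 10, was 0.23 over the 76 genes and 0.00 over all genes, and 64 of 76 (84.2%) were positive against 50.0%. In 45 genes (59.2%) the 3 profiles at 18 were all above the 3 at 10, which held for 15.5% of all genes. The comparison lists shared much of this. Of the respiratory chain subunits 80.5% were positive and 40.3% had all profiles at 18 above those at 10. Of the cytosolic ribosomal proteins 78.0% and 41.5% did. At an unadjusted p under 0.05 (limma), 38 genes were higher and 2 lower, against 1655 higher and 1431 lower of all 13880 genes. The 17 called differences ran from 0.41 to 0.96, and 16 of those genes were also called in the 24 h fit. The other was Mrpl27. Beside its array set term, the 24 h fit reads circadian times 10 and 18 only through their difference, in the same profiles. The overlap is therefore not a separate test of the rise, and no such overlap is given for all genes.

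Mrpl14, whose bacterial counterpart lies on the face of the large subunit that meets the small one, had the largest difference. Its levels at circadian time 10 were 9.63, 9.62 and 9.66, and at 18 they were 10.52, 10.40 and 10.88. The first array set lay between 10.85 and 11.22, so circadian time 10 was far below and circadian time 18 only partly reached it. The difference was 0.96 ± 0.14 (SE, 3 against 3 profiles, limma, adjusted p = 0.00976), a 1.95-fold higher level. Its 24 h amplitude was 0.34 ± 0.06 with a peak at 20.3 (18 profiles, limma, adjusted p = 0.00316). In the first array set alone the amplitude was 0.13 and did not pass the threshold (limma, adjusted p = 0.0685).

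Mrps16, the counterpart of bacterial S16 in the body of the small subunit, was at 10.45, 10.43 and 10.39 at circadian time 10 and 11.33, 11.11 and 11.46 at 18. Its 12 first-set profiles lay between 11.34 and 11.66, with means from 11.43 to 11.48 at its 4 circadian times (limma, adjusted p = 0.954). The difference of 0.88 ± 0.11 passed the threshold (3 against 3 profiles, limma, adjusted p = 0.00657). The cosine in the first array set had an amplitude of 0.03 (limma, adjusted p = 0.892). Its call in the 24 h fit (amplitude 0.27, limma, adjusted p = 0.0232) thus goes with circadian time 10, the lowest 3 of the 18 profiles.

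The other large differences had the same form. Mrpl20 was at 9.91 ± 0.09 (SD, n = 3) at circadian time 10 and 10.82 ± 0.21 at 18, Mrpl54 at 9.30 ± 0.09 and 10.15 ± 0.31, Mrps21 at 10.69 ± 0.06 and 11.48 ± 0.18, and Mrps25 differed by 0.73 ± 0.11 (SE). Mrpl20, Mrpl54 and Mrps21 differed by 0.92, 0.85 and 0.79. In these genes circadian time 10 lay below all other 15 profiles. Mrps21 at 18 reached 11.28 to 11.63, within or above its first-set levels, whereas Mrpl54 at 18, between 9.81 and 10.41, remained below its first-set levels of 10.62 to 10.81. Among the other called genes, picked for their known place in the ribosome, Mrpl17, Mrpl23 and Mrpl24, whose bacterial counterparts lie at the exit of the peptide tunnel, differed by 0.71, 0.57 and 0.49, and Mrps12, at the decoding centre, by 0.59.

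**Figure D4:**
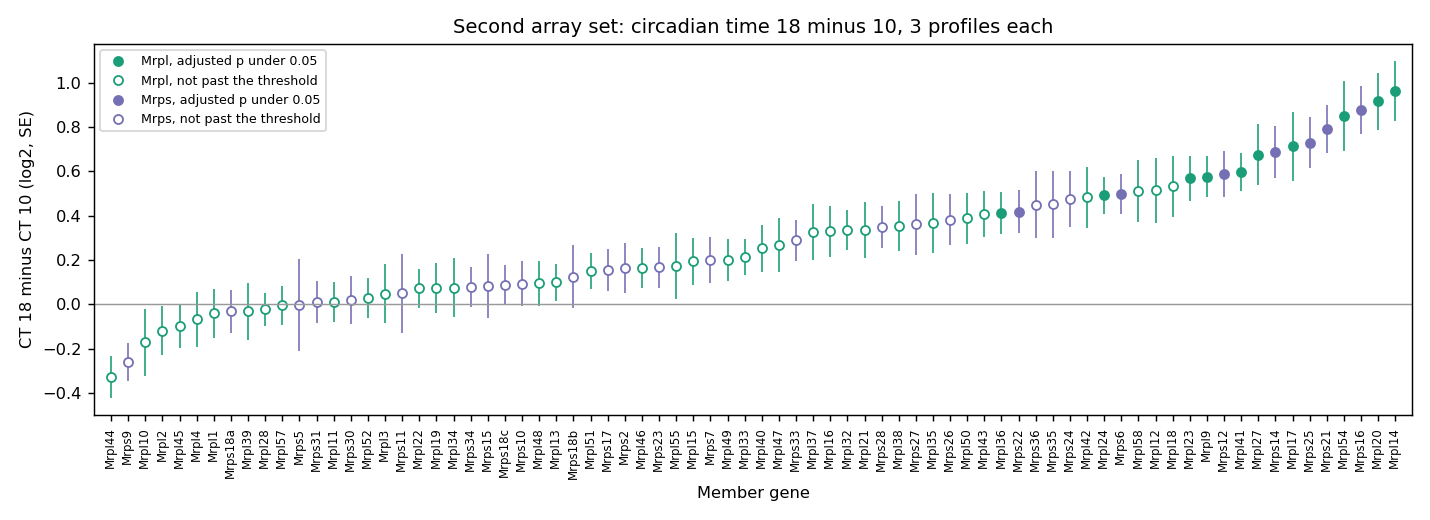
Circadian time 18 minus 10 within the second array set (log2, y axis) for each of the 76 genes in order of size (x axis), with the standard error of the limma fit; filled points have an adjusted p under 0.05, green for Mrpl and violet for Mrps. The difference is above 0 in 64 genes and reaches 0.96 for Mrpl14, and the lowest is -0.33 for Mrpl44.

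In 12 genes circadian time 18 was the lower of the pair, and none of these passed the threshold. Mrps9, in the head of the small subunit, was at 10.97, 11.08 and 10.99 at circadian time 10 and 10.77, 10.78 and 10.71 at 18. The profiles at 18 were below all others, and the difference was -0.26 ± 0.09 (SE, 3 against 3 profiles, limma, adjusted p = 0.123). Its amplitude in the 24 h fit was 0.13 ± 0.03 (limma, adjusted p = 0.0105). Mrpl44, a large-subunit protein with a domain related to RNase III, showed -0.33 ± 0.09 (3 against 3 profiles, limma, adjusted p = 0.0828).

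Genes of the stalk region, where translation factors bind, gave different values; they were picked for their role after the values had been seen. Mrpl10, the base of the stalk, was at 10.30, 10.50 and 10.43 at circadian time 10 and 10.40, 10.41 and 9.90 at 18, and its first-set profiles were between 11.02 and 11.25. Its second minus first array set term was -0.74 ± 0.07. Mrpl12, the mobile part of the stalk, was at 10.82 ± 0.02 (SD, n = 3) at circadian time 10 and 11.33 ± 0.31 at 18. Mrpl11 was at 11.14 ± 0.03 and 11.15 ± 0.11 on its chosen probe set, which lay at -0.08 relative to the first array set at circadian time 10. Another bright probe set of Mrpl11 lay at -0.42 at circadian time 10 and -0.25 at 18.

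The 18 minus 10 count depended on single profiles. It was 0 without 46 h replicate 1, 1 without the joined profile of 70 h and 5 without 46 h replicate 2, while the median difference over the 76 genes stayed between 0.20 and 0.31 in the 6 fits that left 1 profile out. With each profile of circadian time 18 left out in turn, the count was 12, 15 and 22.

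Other measurements moved with the same profiles. All 7 skeletal muscle markers were higher at circadian time 18 than at 10. Their summed signal was 367 to 518 in the first array set, 365 to 11470 at circadian time 10 and 806 to 36066 at 18, and Acta1, Mylpf, Tnnt3, Actn3 and Myh4 had mean levels under the filter. All 5 measured liver markers were also higher at 18, with sums of 1751 to 2190 at 10 and 2159 to 17037 at 18, against 1094 to 2731 in the first array set. The profile of 46 h replicate 2, which had the muscle sum of 365, had a family median of -0.33, beside -0.31 and -0.34 in the other profiles of circadian time 10. The signal of the 18S RNA probe set was 5172 to 6358 in the first array set, 2441 to 2590 at circadian time 10 and 607 to 1968 at 18. For Gapdh, the signal of the 5' probe set over that of the 3' one was 1.05 to 1.13 in the first array set and 0.846 to 0.978 in the second, apart from 0.0387 in the profile of 78 h replicate 2. For Actb the same ratio was 0.629 to 0.729 in the first array set and lower at circadian time 10, at 0.537 to 0.557. At 18 it was 0.672 and 0.656, and 0.347 in the profile of 78 h replicate 2. In that profile 32 of the 76 genes lay above their first-set range, and the share of all genes that did was not counted. The part of RNA quality and of muscle and liver RNA in the differences was not tested. With 1 profile of low Acta1 at each time (54 h replicate 2 minus 46 h replicate 2, no replicates) the median difference over the family was 0.16, and 62 of 76 genes (81.6%) were positive, against 57.8% of all genes. In the same pair the cytosolic ribosomal proteins had a median of 0.15 with 38 of 41 (92.7%) positive, and the respiratory chain subunits 0.09 with 57 of 77 (74.0%).

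Probe sets of one gene gave different values in the second array set. In 17 genes at least 2 probe sets had a mean level of 10 or more. Their 18 minus 10 differences were over 0.3 apart in 7 of these genes (Mrpl52, Mrpl39, Mrps14, Mrpl48, Mrpl13, Mrps6 and Mrpl15), with a median gap of 0.28 over the 17. The ranges over the 4 circadian times of the first array set differed between the same probe sets by 0.00 to 0.13. A range has no direction, so probe sets with opposite courses could have equal ranges. It is therefore not the same measure as the gap between 18 minus 10 differences.

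Mrpl52, a large-subunit protein without bacterial counterpart, showed the widest gap. Relative to the first array set, its chosen and brightest probe set was at 0.00, 0.13 and -0.09 at circadian time 10, in the order 46 h replicate 1, 70 h and 46 h replicate 2. The second was at -0.54, -0.45 and -0.61, and the third at -1.29, -1.59 and -1.30. Their 18 minus 10 differences were 0.03, 0.45 and 1.21, so the level of Mrpl52 at circadian time 10 depends on which probes are read.

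The same held for Mrpl39 and Mrps14. The brightest probe set of Mrpl39 was at 0.27, 0.22 and 0.16 at circadian time 10, above the first array set, and its other one at -0.91, -0.97 and -0.97. For Mrps14, in the head of the small subunit, it was the chosen probe set that was low (-0.95, -0.80 and -0.80) and the dimmer one that stayed near the first array set (-0.04, 0.03 and -0.06). In all, 61 further probe sets of 35 genes lay above the filter. In the 24 h fit 8 of them were called like the chosen one and 35 were not called like the chosen one, 11 were not called where the chosen one was, and 7 were called where it was not. The 12 genes with such disagreement were Mrpl3, Mrpl9, Mrpl13, Mrpl15, Mrpl17, Mrpl35, Mrpl38, Mrpl39, Mrpl52, Mrpl54, Mrps9 and Mrps14.

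**Figure D5:**
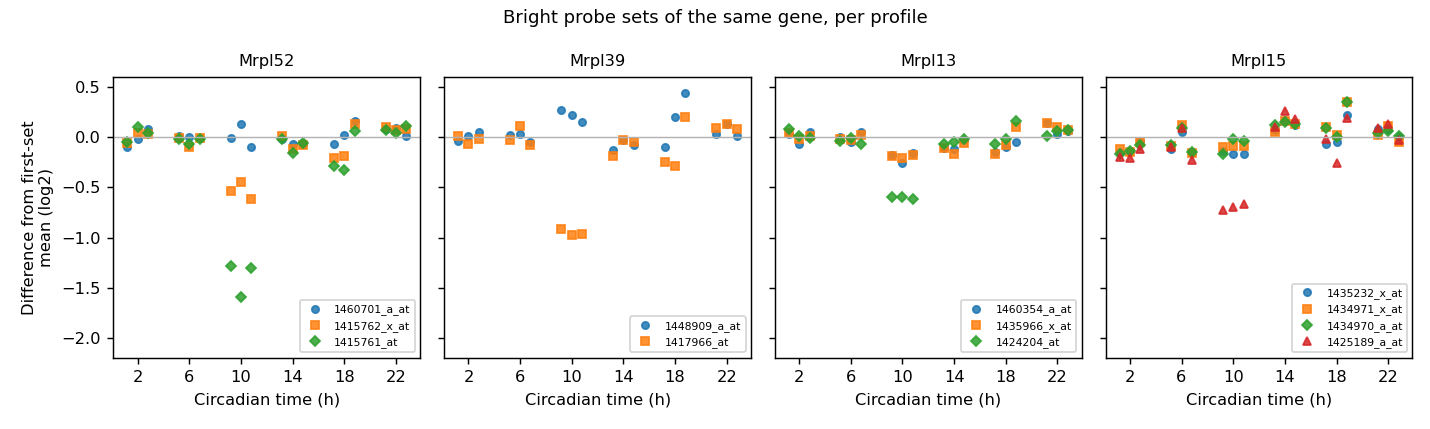
Difference from the first-set mean (log2, y axis) in each of the 18 profiles by projected circadian time (h, x axis) for the probe sets of Mrpl52, Mrpl39, Mrpl13 and Mrpl15 with a mean level of 10 or more, 1 symbol per probe set, brightest first in each key. Probe sets of a gene run together at circadian times 2, 6, 14 and 22 and separate at 10, where those of Mrpl52 reach from 0.13 to -1.59.

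The array set term itself was the most common difference. Beside the 24 h terms, 45 of 76 genes (59.2%) were lower in the second array set and 3 were higher (limma, adjusted p under 0.05), against 29.6% and 16.9% of all genes, with a median of -0.20 against -0.06. The lowest were Mrpl54 (-1.01), Mrpl14 (-0.87) and Mrpl17 (-0.81). The 3 highest values were those of Mrpl39 (0.24), Mrps15 (0.21) and Mrpl48 (0.14), of which Mrpl48 did not pass the threshold (limma, adjusted p = 0.0544); the third called gene was Mrpl28 (0.13). This term holds both a technical difference and any level that circadian times 10 and 18 have in common.

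Members with and without a bacterial counterpart were counted apart. Of the 47 genes with a counterpart, 17 (36.2%) were called in the 24 h fit and 13 (27.7%) rose from 10 to 18. Of the 29 without, 6 (20.7%) and 4 (13.8%) did, the first of which is near the 17.9% of all genes. The median 18 minus 10 difference was 0.20 in the first class and 0.29 in the second, the opposite order to the counts, and the median array set term was -0.27 and -0.12. The difference between the classes was not tested.

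The 3 paralogs of bacterial S18 stand at different places: Mrps18a in the large subunit, Mrps18b and Mrps18c in the small one. None was called in the 24 h fit, with amplitudes of 0.01, 0.07 and 0.02 (limma, adjusted p of 0.966, 0.562 and 0.942). Mrps18a was at 11.02, 10.98 and 10.98 at circadian time 10 and 11.09, 10.83 and 10.97 at 18, below its first-set levels of 11.25 to 11.46. Mrps18b lay between 10.49 and 11.01 over all 18 profiles and Mrps18c between 11.03 and 11.26, with circadian times 10 and 18 overlapping the first array set in both.

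Signals of the chosen probe sets ranged from 578 for Mrpl1, 616 for Mrps5 and 922 for Mrpl50 to 3582 for Mrpl39, 4581 for Mrpl52 and 5951 for Mrpl51. A signal depends on the probes as well as on the transcript, so the genes are not ranked by it. Mrpl51, a large-subunit protein without bacterial counterpart, was one of the even members: its 18 profiles lay between 12.39 and 12.71, with an amplitude of 0.04 (limma, adjusted p = 0.51).

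The 2 cycles were compared on the 13 profiles that belong to 1 cycle only, 7 in the first and 6 in the second. None of the 76 genes differed (limma, adjusted p under 0.05), nor did any other gene (0% of all genes). At an unadjusted p under 0.05 there were 6 (Mrpl19, Mrpl34, Mrpl51, Mrps18b, Mrps27 and Mrps36), or 7.89%, against 9.73% of all genes. The largest was Mrpl34, higher in the second cycle by 0.28 ± 0.08 (limma, adjusted p = 0.491).

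Promoter sequences were read for genes of the family, since many of its members moved together. RefSeq windows from 250 bases before to 50 after the transcript start (GRCm38.p6) were found for 67 of the 76 genes. The 6 motifs were searched on both strands: NRF1 (its core motif), ETS (CCGGAAG), SP1 (GGGCGG), E-box (CACGTG), D-box (TTATGTAA) and YY1 (AAGATGGC). The last 3 letters of the ETS motif are the first 3 of the YY1 motif, so that 1 stretch can hold both. NRF1 and the ETS factor GABP are known as regulators of nuclear genes for mitochondrial proteins, and E-box and D-box are bound by clock factors.

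The ETS, NRF1 and YY1 letters were more frequent than in other promoters, and the clock motifs were not. The ETS motif was in 37.3% of the 67 promoters, against 17.5% of the promoters of 11076 genes tested on the array and 9.93% of all 27025 in the table. The NRF1 motif was in 17.9%, against 10.1% and 5.19%, and the YY1 motif also in 17.9%, against 4.74% and 3.19%. SP1 was in 50.8%, against 64.1% and 38.2%. The E-box was in 7.46%, against 11.1% and 8.09%, and the D-box in 0 of 67, against 0.66% and 1.11%. Among the 36 genes with circadian time 10 below all other profiles, 13 had the ETS, 7 the NRF1 and 9 the YY1 motif; among the other 31, 12, 5 and 3 did. These are counts of letters, not of bound sites, and no difference between them was tested.

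The promoters of 5 genes are shown as examples of each motif among genes with a called rhythm, the 150 bases before the start, 5' to 3' on the gene's strand, with motif letters in capitals. Mrpl36 (chr13:73330859-73331008, plus strand) has an E-box starting 43 bases and a YY1 motif 30 bases before the start. Mrpl20 (chr4:155802728-155802877, plus strand) has an E-box 33 bases before it. Mrpl17 (chr7:105811088-105811237, minus strand) has an NRF1 motif 49 bases before it and SP1 motifs at 126 and 87. Mrps21 (chr3:95871515-95871664, minus strand) has an NRF1 motif at 91. Mrps16 (chr14:20393491-20393640, minus strand, the first of 2 starts) has an ETS motif at 74.
Mrpl36: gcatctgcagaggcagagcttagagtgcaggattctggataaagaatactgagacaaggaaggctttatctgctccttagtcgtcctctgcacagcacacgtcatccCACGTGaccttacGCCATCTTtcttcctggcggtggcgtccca
Mrpl20: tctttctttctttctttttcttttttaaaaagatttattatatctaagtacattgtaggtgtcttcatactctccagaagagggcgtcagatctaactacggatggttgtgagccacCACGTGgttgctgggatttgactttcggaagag
Mrpl17: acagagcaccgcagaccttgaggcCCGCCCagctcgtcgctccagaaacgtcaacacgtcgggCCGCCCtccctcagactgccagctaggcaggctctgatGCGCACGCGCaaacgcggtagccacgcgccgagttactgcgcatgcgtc
Mrps21: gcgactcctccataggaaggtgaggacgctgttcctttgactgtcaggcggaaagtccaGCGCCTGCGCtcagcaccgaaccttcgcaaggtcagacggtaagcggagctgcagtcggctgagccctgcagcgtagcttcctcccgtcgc
Mrps16: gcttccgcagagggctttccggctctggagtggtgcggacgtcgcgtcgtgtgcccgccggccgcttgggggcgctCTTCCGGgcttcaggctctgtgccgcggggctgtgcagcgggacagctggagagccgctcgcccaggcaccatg
Of the genes called within the first array set whose promoter was found, Mrpl36 and Mrpl20 carry an E-box in these bases, and Mrpl17, Mrpl41, Mrps25 and Mrps6 do not. Among genes not called in the 24 h fit, Mrpl2 carries one in these bases, and Mrpl37 and Mrps18c carry one in the full window. The share of all genes with an E-box in the 150 bases was not counted. Of the genes called in all 3 fits, Mrps25 and Mrpl41 hold none of the 6 motifs in theirs, and Mrps6 holds 4 SP1 motifs.

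Other genes of mitochondrial translation were counted from lists of their roles, beside the 17.9% of all genes called in the 24 h fit. Of 4 further subunits tested, Gadd45gip1 (amplitude 0.36, limma, adjusted p = 0.00449) and Chchd1 (0.17, limma, adjusted p = 0.0127) were called in the 24 h fit, and both rose from circadian time 10 to 18. Of 22 assembly and ribosomal RNA factors 5 were called (22.7%, near the share of all genes); the 4 with the lowest p were Noa1, a GTPase of ribosome assembly (amplitude 0.17), Mpv17l2 (0.17), Malsu1, which binds the large subunit before it joins the small one (0.19), and Ngrn (0.19). Of 20 tRNA enzymes 2 were called (10%, under that share), the synthetases Cars2 (0.24) and Tars2 (0.17). Of 11 genes of mitochondrial genome expression 3 were called (27.3% of a short list): Lrpprc, which stabilises mitochondrial messenger RNAs (0.28), the DNA polymerase Polg (0.18) and the DNA-packaging factor Tfam (0.13).

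Translation factors and cytosolic ribosomal proteins had no gene called in the 24 h fit. None of the 10 translation factors tested passed the 24 h fit or the comparison of 18 with 10 (limma, adjusted p under 0.05). A fitted peak between 16 and 24 was found in 9 of the 10, against 34.9% of all genes. In each test 2 of the 10 had an unadjusted p under 0.05 (limma). Over all 13880 genes, 4435 did in the 24 h fit and 3086 in the comparison of 18 with 10. Of 41 cytosolic ribosomal proteins 0 were called in the 24 h fit (3 at an unadjusted p under 0.05, limma) and 4 rose from 10 to 18, with a median difference of 0.10. Of 77 respiratory chain subunits 10 were called (12.99%, under the 17.9% of all genes) and 17 rose (22.1%, against 3.57%), with a median of 0.15. The median of the mitochondrial ribosomal genes, 0.23, was the highest of these 3 lists; in the pair of profiles with low Acta1 it was 0.16 against 0.15 for the cytosolic ribosomal proteins. The difference between lists was not tested.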

How the data were processed

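The values are probe set intensity values on a linear scale, deposited by the authors for 24 arrays. Their summarisation and scaling are not given in the sources read here. Values were taken as log2(intensity + 51.0), the offset being the 10th percentile of all values, so differences of dim genes are understated. The filter dropped probe sets whose mean signal was below 183, the 40th percentile. Symbols came from the platform annotation, where 34958 of 45101 probe sets had 1 symbol. The 6 near-copy pairs were averaged. The array set was defined from the data, by ThrX-3. Replicate numbers do not pair samples here (correlations of 66 same-number pairs from -0.56 to 0.53, median 0.01).

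Tests used limma 3.58.1 in R 4.3.3 (with data.table, version 1.17.8, and eBayes with trend), with Benjamini-Hochberg adjustment over 13880 genes and a threshold of 0.05, checked on simulated data. The number of arrays limits the precision. The members, lists, tests and alternatives were chosen with earlier results of these data known. Genes named were up to 14 called in the 24 h fit, 6 called for 18 minus 10, the 3 extremes of signal and of the array set term, the S18 paralogs, genes whose probe sets disagree, and up to 4 per related list; a few more were picked for their role, as the text says.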

Additional observations from a re-analysis of the deposited data

How the results depend on the processing

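No single-gene value changed direction in any alternative, but the counts moved, and so did their standing beside all genes. The share called in the 24 h fit was 30.3% against 17.9% of all genes. In the first array set only it was 9.21% against 12.3%, and without the array set term 13.2% against 12.8%. The count of 23 genes called in the 24 h fit became 10 without the array set term, 7 in the first array set only, 38 over all 24 columns, 38 with a replicate block over the same columns, 36 with time points as random blocks, and 8 without the 4 profiles with high Acta1. Leaving out single profiles gave 14 to 28. It stayed at 17 to 23 with other offsets, probe set choices, quantile normalization, no filter, and without 78 h replicate 2. The 5 genes called among circadian times of the first array set became 3 without the filter and 1 to 6 without single profiles. The 17 genes called for 18 minus 10 became 0 to 22 without single profiles, and 14 to 17 otherwise. The 48 called for the array set term stayed within 40 to 55 without single profiles, and the count for the cycles was 0 throughout. Of 430 single-gene values in the 24 h fit 40 lost the call, of 66 for 18 minus 10 13 did, and of 138 for the array set term 3 did and 5 gained one. Quantile normalization left the family's median 18 minus 10 difference at 0.24. With 6 profiles in the second array set, and 1 of them of low Gapdh 5' to 3' ratio, few arrays carry the differences at circadian times 10 and 18.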
